A study of Mus musculus with 2 samples.

Results

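The genes described here are 37 genes of the unfolded protein response (UPR) and of protein folding in the endoplasmic reticulum (ER), out of 18194 genes named on the array. They were chosen by gene symbol from a list of ER chaperones, disulfide isomerases, ER-associated degradation (ERAD) factors and the ATF6, IRE1 and PERK branches, and a probe set counted where it carried exactly 1 gene symbol. Ero1lb is named Ero1b in the platform annotation and was matched through its older symbol. The 37 genes were read by 87 probe sets, and every probe set was examined.

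The study asked how dietary diosgenin, a plant steroidal sapogenin, affects the liver of ICR mice, an outbred stock. In the diosgenin group the basal diet CRF-1 held 500 ppm diosgenin from 9 weeks of age for 4 weeks, and the control group received CRF-1 alone. Both groups shared the stock, the tissue and an age of 13 weeks at collection. Each group was 1 Affymetrix array that carried biotin-labelled cRNA from the livers of 3 mice, pooled before labelling. Sex, hour of collection and the allocation of mice to cages are not in the labels. With 1 array for each diet there was no test, no p-value and no spread between mice. Below, higher and lower always mean with diosgenin compared with the control diet.

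Secreted proteins enter the ER unfolded. Chaperones such as BiP (Hspa5) hold them, isomerases form their disulfide bonds, and chains that fail to fold are moved back to the cytosol and degraded, which is ERAD. When unfolded proteins accumulate, the membrane sensors ATF6, IRE1 (Ern1) and PERK (Eif2ak3) start the UPR. ATF6 and the spliced form of XBP1 raise chaperone and ERAD genes through promoter elements such as the ER stress response element (ERSE), whereas PERK phosphorylates eIF2α, which lowers translation and favours ATF4 and its target CHOP (Ddit3). Hepatocytes secrete most plasma proteins and carry an abundant ER, and the liver UPR is also known to vary with feeding and the time of day.

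Most of the 37 genes were lower with diosgenin. At least 1.5-fold lower were 1 of 5 chaperones, 2 of 5 co-chaperones and 2 of 8 ERAD genes. So were 2 of the 10 genes of disulfide formation, MANF, CRELD and prolyl isomerases. Among the 4 genes of the sensors with Xbp1 and the 5 of the PERK output, 0 were. With 3.61% of all genes at least 1.5-fold lower, 0 is an ordinary count in groups this small. The values used are array intensities on a linear scale, with signals under a floor of 10.7 set to it before log2 was taken. A gene's value came from its probe set with the highest mean signal, and genes with a mean of at least 28.4 were kept, which all 37 reached. Of the 37 genes, 30 were lower and 7 higher, where 51% of all 9732 genes above the filter were lower and 49% higher. At least 1.5-fold lower were 7 genes, Creld2, Derl3, Sdf2l1, Syvn1, Manf, Dnajb11 and Hspa5, or 18.9%, where 3.61% of all genes were. None of the 37 was at least 1.5-fold higher, where 2.84% of all genes were. At least 2-fold lower were Creld2, Derl3 and Sdf2l1, where 0.853% of all genes were. The median log2 ratio of the 37 genes was −0.20, and that of all genes above the filter was −0.01. The 37 genes were chosen with earlier results of these data known, so these shares are a description only. In whole liver, fewer cells of a type and less RNA per cell cannot be told apart.

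**Figure D1:**
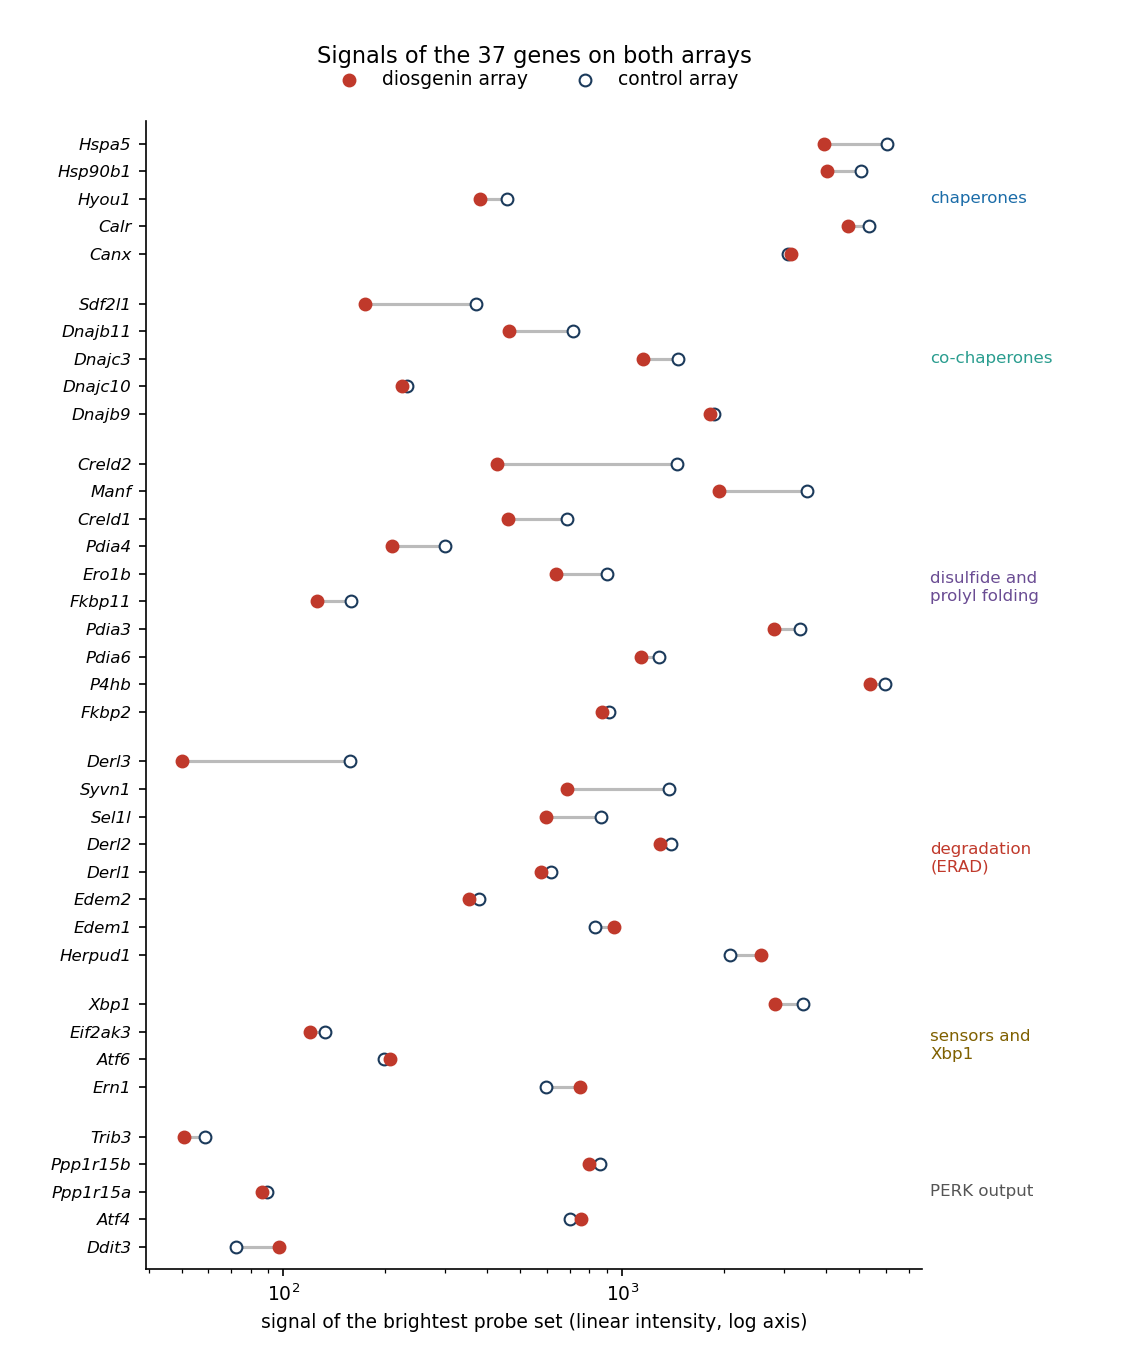
Signal of the brightest probe set of each of the 37 genes (linear intensity on a log axis) on the diosgenin array (filled) and the control array (open), grouped by role. Each point is 1 array of RNA pooled from 3 mice and there are no error bars. The widest gaps are those of Creld2, at 426 with diosgenin and 1449 in the control, and Derl3, at 50.0 with diosgenin and 157 in the control.

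The only repeat measurement lay inside the arrays, in genes read by several probe sets. Within a gene, the log2 ratios of its probe sets had an SD of 0.28 over 4079 genes, and of 0.22 over the 23 of the 37 genes that had several above the filter. This SD contains no spread between mice. Of 76 probe sets of the 37 genes above the filter, 55 were lower and 21 higher, where 50.6% of all probe sets above the filter were lower and 49.4% higher. At least 1.5-fold lower were 11 of the 76, or 14.5%, where 4% of all were, and 0 were at least 1.5-fold higher, where 3.25% were. Of the 23 genes, 13 had all their probe sets on 1 side of 0 and 10 had probe sets on both sides. Ratios within 0.28 of 0 are no larger than this SD and are given as values only.

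The spread of ratios narrows with signal, and 26 of the 37 genes were among the 2433 brightest genes, those with a mean signal of at least 377. There 5 of the 26 genes, Creld2, Syvn1, Manf, Dnajb11 and Hspa5, were at least 1.5-fold lower, where 1.15% of the 2433 were. The central 95% of the brightest genes reached from −0.47 to 0.44 on the log2 scale. Creld2 had the lowest ratio of all 2433, Syvn1 ranked 6 from the bottom and Manf 11. Set against genes of their own signal range, 10 of the 37 were below the central 95% and 0 above it. These 10 were the 7 genes named above together with Creld1, Sel1l and Ero1b.

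**Figure D2:**
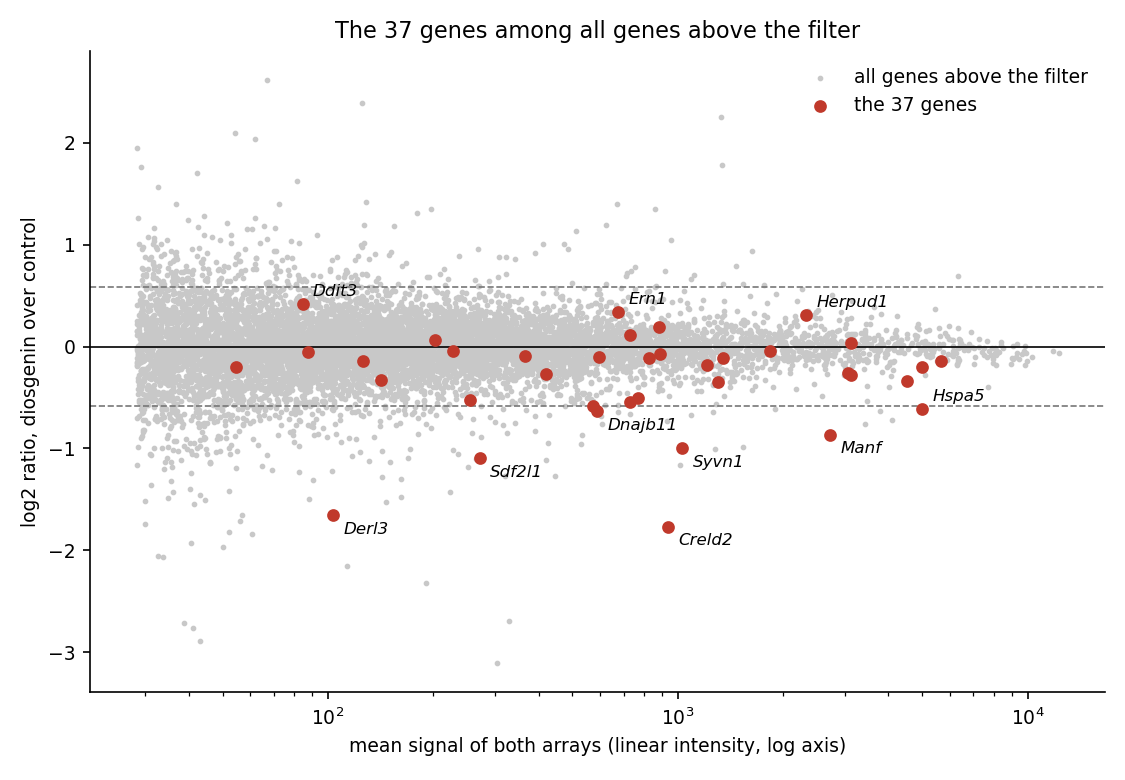
Log2 ratio, diosgenin over control (vertical axis), against the mean signal of both arrays (linear intensity, log axis) for all 9732 genes above the filter (grey) and the 37 genes (red). Dashed lines mark 1.5-fold. Of the 37 points 7 lie under the lower dashed line and 0 above the upper one.

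Promoter sequence was not used to choose the genes, although the ERSE was first described in ER chaperone promoters, so finding it here is not independent of what these genes are. Promoter windows of 300 bases, 250 before and 50 after the gene's start, were taken from RefSeq on the mouse build GRCm38.p6, and 32 of the 37 genes had one. Atf6, Derl1, Hyou1, Manf and Ppp1r15b had none in the table. The ERSE was searched on both strands as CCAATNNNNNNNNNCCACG, in which the first block is bound by NF-Y and the second by ATF6 and XBP1. It was found in 10 of the 32 genes, or 31.3%, against 0.137% of all 27025 genes with a window and 0.119% of all 32851 promoters. The 11 matches are shown because 4 of the 7 genes that were at least 1.5-fold lower carry one. They run 5′ to 3′ in the direction of the motif, with both fixed blocks in capitals, in the order of the genes' log2 ratios.
Creld2: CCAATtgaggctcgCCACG
Derl3: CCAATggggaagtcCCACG
Syvn1: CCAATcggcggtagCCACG
Hspa5: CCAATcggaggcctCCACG
Ero1b: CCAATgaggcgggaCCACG
Dnajc3: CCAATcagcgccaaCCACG
Hsp90b1: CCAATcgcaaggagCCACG
Hsp90b1: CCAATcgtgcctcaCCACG
Calr: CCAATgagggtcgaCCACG
Pdia6: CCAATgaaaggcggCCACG
Canx: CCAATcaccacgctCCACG

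Of the 10 genes with an ERSE 9 were lower, with a median log2 ratio of −0.43 and a range from −1.77 for Creld2 to 0.03 for Canx. Of the 22 genes without one 17 were lower, with a median of −0.13. These 22 include Ern1, Xbp1, Eif2ak3, Atf4, Ddit3, Trib3 and Ppp1r15a. In the sensor group and the PERK output, no gene with a window had an ERSE, and Atf6 and Ppp1r15b had no window. The split by ERSE thus overlaps the split by role, and the parts of the 2 were not tested. Of the 6 genes with a window that were at least 1.5-fold lower, 4 had an ERSE. Sdf2l1 and Dnajb11 had none in this window. A wider pattern with the last 2 bases of the second block left free, CCAATNNNNNNNNNCCANN, was added after the ERSE result was seen. It matched 16 of the 32 genes, with a median of −0.43, against −0.08 for the other 16, and it matched 1.09% of all promoters. Of 85 other genes above the filter that held the wider pattern, 43 were lower, 42 were higher and 3 were at least 1.5-fold lower, and their median log2 ratio was −0.0043. Every ERSE match is also a match of this wider pattern. A match of letters describes the promoter and shows neither binding nor a cause.

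The whole windows of the 4 genes that were at least 1.5-fold lower and carried an ERSE show where it lies. They are given on the gene's strand with the fixed blocks of the ERSE in capitals, which read as the reverse complement in Creld2 and Derl3. Positions count from the gene's start. The window of Creld2 is chr15:88819396-88819695 and its match spans bases −126 to −108. That of Derl3 is chr10:75893148-75893447, with the match at −156 to −138. That of Syvn1 is chr19:6046326-6046625, with the match at −44 to −26. That of Hspa5 is chr2:34771840-34772139, with the match at −65 to −47. All 4 genes lie on the plus strand.
Creld2: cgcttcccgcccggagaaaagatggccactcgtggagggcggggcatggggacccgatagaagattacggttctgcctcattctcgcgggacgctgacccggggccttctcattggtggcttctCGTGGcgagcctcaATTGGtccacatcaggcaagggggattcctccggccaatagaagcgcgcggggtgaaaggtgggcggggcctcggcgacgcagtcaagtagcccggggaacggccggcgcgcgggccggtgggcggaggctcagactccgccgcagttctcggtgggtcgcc
Derl3: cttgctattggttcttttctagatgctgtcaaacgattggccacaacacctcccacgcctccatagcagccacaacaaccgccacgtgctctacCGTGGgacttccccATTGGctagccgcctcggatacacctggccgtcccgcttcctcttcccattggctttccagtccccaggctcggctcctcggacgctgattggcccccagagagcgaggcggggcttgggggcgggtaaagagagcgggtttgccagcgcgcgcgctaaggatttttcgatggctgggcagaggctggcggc
Syvn1: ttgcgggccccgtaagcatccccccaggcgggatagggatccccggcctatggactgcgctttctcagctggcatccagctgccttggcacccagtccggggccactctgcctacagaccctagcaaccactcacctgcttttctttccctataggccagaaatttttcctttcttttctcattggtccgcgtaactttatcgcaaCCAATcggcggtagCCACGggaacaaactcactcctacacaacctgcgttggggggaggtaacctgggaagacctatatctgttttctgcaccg
Hspa5: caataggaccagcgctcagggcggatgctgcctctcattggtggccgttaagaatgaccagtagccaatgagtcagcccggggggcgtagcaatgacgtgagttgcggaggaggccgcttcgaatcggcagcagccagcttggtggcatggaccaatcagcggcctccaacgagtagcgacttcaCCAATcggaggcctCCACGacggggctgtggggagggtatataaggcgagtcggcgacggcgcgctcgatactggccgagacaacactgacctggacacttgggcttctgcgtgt

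**Figure D3:**
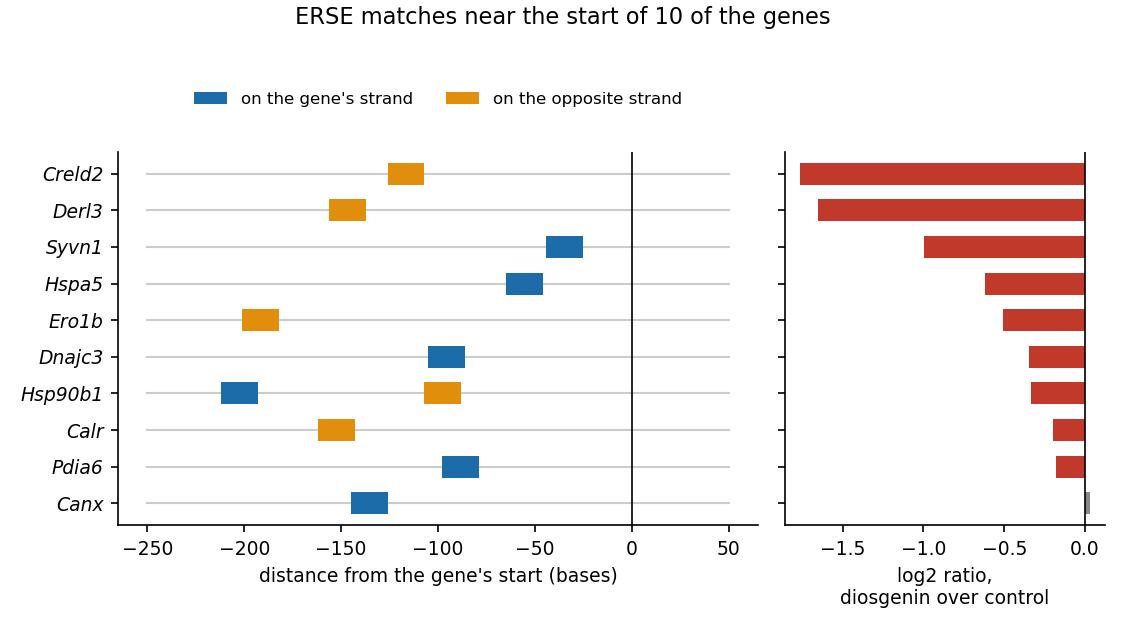
Left, position of each ERSE match from the gene's start in bases, on the gene's strand (blue) or the opposite one (orange), for the 10 genes with a match in a window of 250 bases before to 50 after the start. Right, log2 ratio, diosgenin over control, for the same genes, from Creld2 at −1.77 to Canx at 0.03.

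A second form of the element, ERSE-II, was searched as ATTGGNCCACG and found in 2 of the 32 genes, against 0.0365% of all promoters. These 2 genes differed in direction. Dnajb11 was 1.55-fold lower, and its match spans bases 8 to 18. Herpud1 was 1.24-fold higher, and its match spans bases −52 to −42. Neither overlaps an ERSE match. They are printed in the direction of the motif, with the free base in lower case.
Dnajb11: ATTGGcCCACG
Herpud1: ATTGGgCCACG
The core of the UPR element, TGACGTGG, was found in 0 of the 32 genes and in 0.676% of all promoters. The C/EBP-ATF element through which ATF4 acts, searched as TGATGNAA, was found in Herpud1 and Trib3 and in 3.97% of all promoters.

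Among the chaperones, 4 of 5 genes were lower, with a median log2 ratio of −0.27. Without probe sets that may read several transcripts the median was −0.05, but only Canx and Hyou1 then had a value. Hspa5, which encodes BiP, the central ER chaperone and the protein that holds the sensors inactive, had a signal of 3946 on the diosgenin array and 6052 on the control array, 1.53-fold lower. Its other probe sets gave log2 ratios of −0.97, at signals of 2366 with diosgenin and 4634 in the control, and of −0.06, at 286 with diosgenin and 297 in the control, so that 1 of 3 did not show the difference. With quantile normalization Hspa5 was at −0.58, just short of 1.5-fold. Hsp90b1, the ER form of HSP90 (GRP94), had 4007 with diosgenin and 5051 in the control, 1.26-fold lower, and both of its probe sets were lower by similar amounts, −0.33 and −0.36. Calr, a lectin chaperone of the lumen, had 4648 with diosgenin and 5343 in the control, 1.15-fold lower, and its 3 probe sets lay between −0.22 and −0.17. Its membrane-bound partner Canx did not share this, for it had 3158 with diosgenin and 3089 in the control, with probe sets on both sides of 0. Hyou1, the nucleotide exchange factor of BiP, had 380.5 with diosgenin and 457 in the control, 1.20-fold lower, and its dimmest probe set had the opposite sign at 0.28. Of the 5 chaperones, Hspa5 and Hsp90b1 had ratios past the SD of 0.28.

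All 5 co-chaperones were lower, at a median log2 ratio of −0.35, and fell into a pair at least 1.5-fold lower and others closer to the control. Sdf2l1, which binds the ER J-domain proteins and keeps clients soluble, had 174 on the diosgenin array and 370.3 on the control array, 2.13-fold lower. Dnajb11 (ERdj3), a J-domain protein that delivers unfolded chains to BiP, had 462 with diosgenin and 717 in the control, 1.55-fold lower. Both genes were read by 1 probe set each. Dnajc3 (p58IPK), a lumenal co-chaperone of BiP, had 1149 with diosgenin and 1464 in the control, 1.27-fold lower, and all 5 of its probe sets were lower, from −0.60 to −0.18. Dnajc10 (ERdj5), a reductase that opens disulfides for degradation, had 224 with diosgenin and 232 in the control. Dnajb9 (ERdj4), a repressor of IRE1 through BiP and a textbook target of spliced XBP1, had 1816 with diosgenin and 1866 in the control. The last 2 genes thus differed from the control by no more than the SD between probe sets.

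All 10 genes of disulfide formation, of the MANF and CRELD proteins and of the ER prolyl isomerases were lower. Their median log2 ratio of −0.42 was the lowest of the 6 role groups, and the 2 past 1.5-fold were Creld2 and Manf. Creld2, an ER protein with EGF domains and isomerase activity that is induced by ER stress, had 426 with diosgenin and 1449 in the control, 3.40-fold lower, which is rank 14 from the bottom of all 9732 genes. Its relative Creld1 had 459 with diosgenin and 688 in the control, a log2 ratio of −0.58, just short of 1.5-fold. Manf, a small ER protein that stabilises BiP complexes and is partly secreted, had 1933 with diosgenin and 3519 in the control, 1.82-fold lower. Each of these 3 genes had 1 probe set, so none has a repeat on the array.

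The disulfide isomerases themselves were closer to the control. Pdia4 (ERp72) had 209 on the diosgenin array and 300.4 on the control array, 1.43-fold lower, and its second probe set was too dim to use. Pdia3 (ERp57), which works with the lectin chaperones, had 2801 with diosgenin and 3344 in the control, 1.19-fold lower, with both probe sets at −0.26. Pdia6 had 1133 with diosgenin and 1285 in the control, 1.13-fold lower, with its dim second probe set at 0.27. P4hb, the classical isomerase PDI, had 5376.5 with diosgenin and 5948 in the control, 1.11-fold lower. Ero1b, the oxidase that recharges PDI, had 635 with diosgenin and 901 in the control, 1.42-fold lower, and its second probe set above the filter was at −0.70. Of the prolyl isomerases, Fkbp11 had 126 with diosgenin and 158 in the control, 1.26-fold lower with both probe sets at −0.33 and −0.34, and Fkbp2 had 871 with diosgenin and 913 in the control. Of these 7 genes, those with log2 ratios past the SD of 0.28 were Pdia4, Ero1b and Fkbp11.

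The ERAD genes went both ways, 6 of 8 lower and the other 2 higher, around a median of −0.11. Derl3, a derlin of the ER membrane that is induced by XBP1 and abundant in secretory cells, had 50.0 with diosgenin and 157 in the control, 3.15-fold lower, rank 17 from the bottom of all genes. Its single probe set is of a type that reads several transcripts of the gene. Derl1 and Derl2, derlins of the same family, had 575 with diosgenin and 617 in the control for Derl1, and 1293 with diosgenin and 1397 in the control for Derl2, each with probe sets on both sides of 0. Syvn1, the ubiquitin ligase HRD1, had 689 with diosgenin and 1375 in the control, just short of 2-fold lower at a log2 ratio of −0.998, and its second probe set had 456 with diosgenin and 777 in the control, a log2 ratio of −0.77. Sel1l, the adaptor that holds HRD1 in its complex, had 594 with diosgenin and 866 in the control, 1.46-fold lower, and 4 of its 5 probe sets were lower, with the dimmest at 0.32. The ligase and its adaptor were thus both lower.

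Herpud1, a scaffold of the same complex and a gene that PERK and ATF6 both induce, differed from them. It had 2568 on the diosgenin array and 2073 on the control array, 1.24-fold higher, with its second probe set at 0.45, so both probe sets were past the SD of 0.28. Edem1 and Edem2 trim mannose from chains bound for degradation. Edem1 had 946 with diosgenin and 828 in the control, with probe sets at 0.19 and −0.14, and Edem2 had 354 with diosgenin and 377 in the control. Neither differed from the control by more than the SD between probe sets.

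The sensor group held the genes of ATF6, IRE1 and PERK together with Xbp1, the target of IRE1. Of its 4 genes 2 were lower, with a median of −0.04, and Xbp1 was 1 of these 2. Of the sensors themselves, Eif2ak3 was lower at −0.14, and Atf6 at 0.06 and Ern1 at 0.34 were higher. With the median of all probe sets of a gene, Atf6 was at −0.21 and the median of the group at −0.18. Ern1, which encodes IRE1α, the kinase and nuclease that splices the Xbp1 transcript, had 751 with diosgenin and 595 in the control, 1.26-fold higher, and its other probe sets above the filter were at 0.01 and 0.17. Xbp1 had 2821 with diosgenin and 3424 in the control, 1.21-fold lower, and all 4 of its probe sets were lower, from −0.28 to −0.14. The spliced and unspliced forms of Xbp1 were not told apart here. Atf6 had 206 with diosgenin and 197 in the control by its brightest probe set and a log2 ratio of −0.49 by the other one above the filter, so its direction is not settled. Eif2ak3, which encodes PERK, had 119.9 with diosgenin and 132 in the control.

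Of the 5 genes of the PERK output 3 were lower, with a median of −0.05. The median was 0.03 with the filter at the 75th percentile and without shared and alternative probe sets. Trib3 had no value in either of these settings. Ddit3, which encodes the transcription factor CHOP, had 96.8 on the diosgenin array and 72.6 on the control array, 1.33-fold higher and the highest ratio of the 37 genes. It lay inside the central 95% of genes of its signal range, which reached 0.62. Atf4 had 756 with diosgenin and 700.0 in the control, with both probe sets above the filter at 0.11 and 0.12. Trib3, a pseudokinase induced by CHOP, had 50.9 with diosgenin and 58.5 in the control, with probe sets on both sides of 0. The phosphatase subunits that reverse eIF2α phosphorylation differed little, at 86.3 with diosgenin and 89.6 in the control for the inducible Ppp1r15a (GADD34) and at 798 with diosgenin and 859.9 in the control for the constitutive Ppp1r15b.

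**Figure D4:**
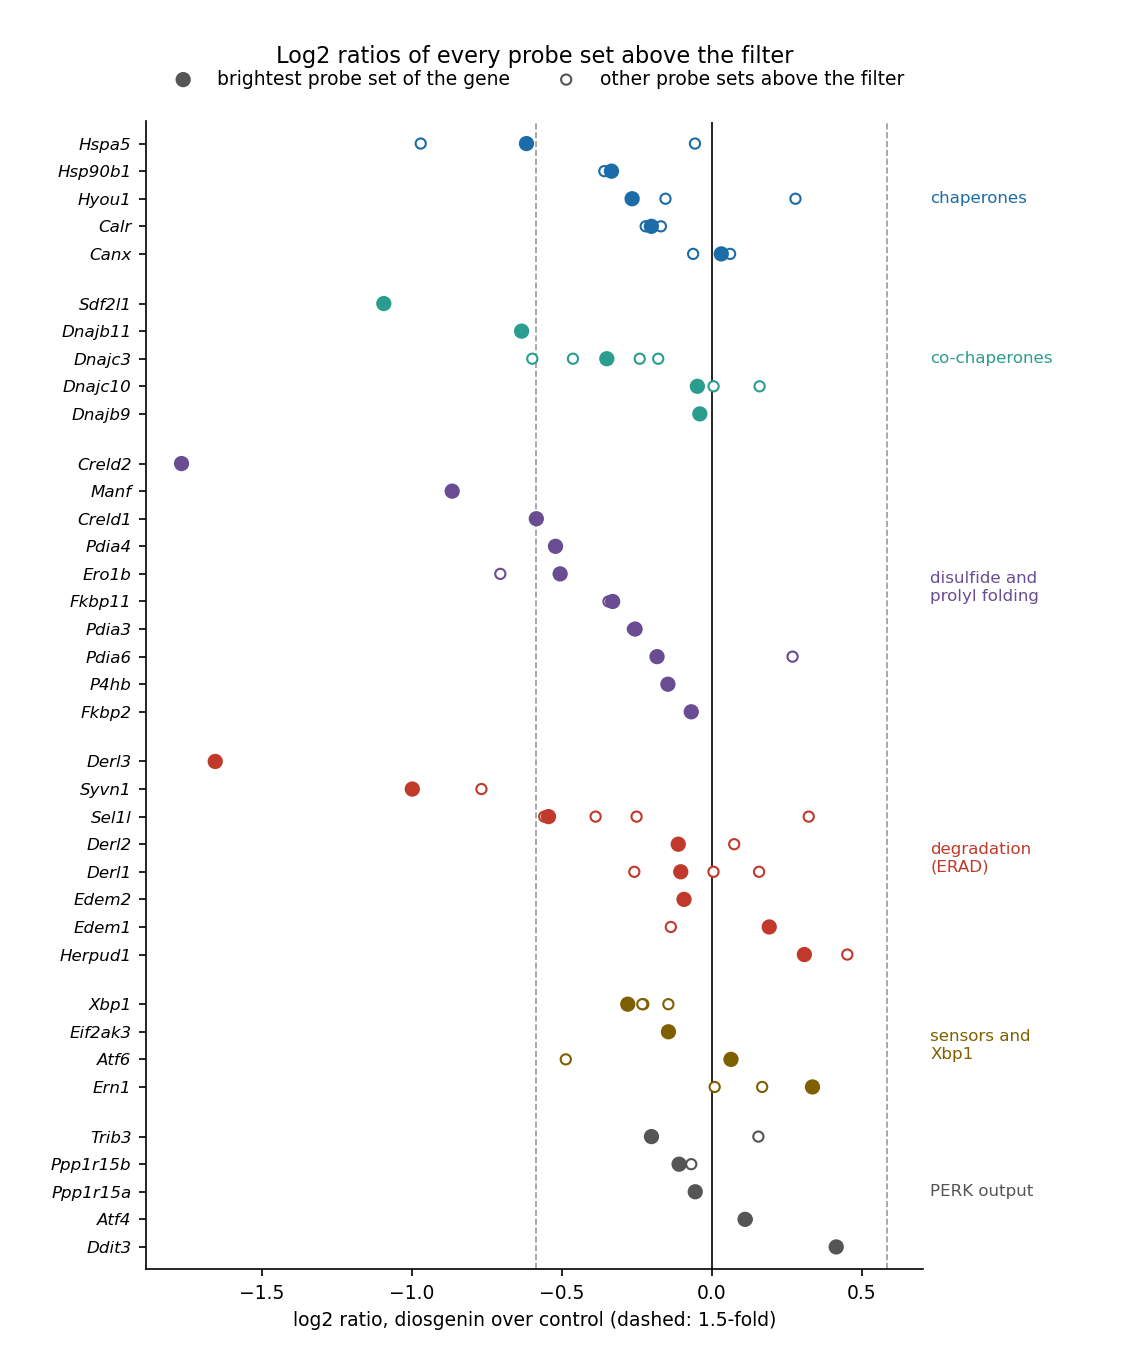
Log2 ratio, diosgenin over control, for every probe set of the 37 genes above the filter, grouped by role. Filled points are the brightest probe set of a gene, open points the others, and dashed lines mark 1.5-fold. Chaperones, co-chaperones and the group of disulfide formation, MANF, CRELD and prolyl isomerases lie mostly left of 0. The sensors with Xbp1 and the PERK output lie on both sides.

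Genes of the same processes outside the 37 were described in the same way. Of 33 other ER folding genes above the filter 20 were lower, with a median of −0.08. At least 1.5-fold lower was 1 gene, or 3.03%, where 3.61% of all genes were. That gene was Nucb2, which encodes a calcium-binding protein of the secretory pathway, at 20.4 with diosgenin and 79.7 in the control, 3.91-fold lower. Next by size came Uggt1, the glucosyltransferase that tests whether a glycoprotein is folded, at 209.6 with diosgenin and 286.7 in the control, a log2 ratio of −0.45, the PDI oxidase gene Ero1a at −0.44 and Dnajc25 at 0.38. Of 31 other ERAD genes 18 were lower, with a median of −0.04. Ubxn4, an ER membrane protein that recruits the ATPase p97, had 452 with diosgenin and 763 in the control, 1.69-fold lower with all 3 of its probe sets lower, and the mannosidase gene Edem3 was at −0.47. Ufd1 and Nploc4, cofactors of p97, were at −0.20 and −0.19.

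The 19 other UPR control genes were divided, with 9 lower, 10 higher and a median of 0.03. The apoptosis gene Bak1 had 70.4 with diosgenin and 42.6 in the control, 1.65-fold higher. Yod1 was at 0.51, Wfs1 at −0.51 and the ATF6-like factor gene Creb3l2 at −0.46. Each of these genes lay inside the central 95% of genes of its signal range. Yod1 and Creb3l2 also had probe sets on both sides of 0. ATF4 and CHOP targets of the amino acid response gave 15 lower and 12 higher among 27 genes, with a median of −0.03. At least 1.5-fold lower were 4 of them, or 14.8%, where 3.61% of all genes were. They were Phgdh at a log2 ratio of −1.82 and Psph at −0.75, both of serine synthesis, the glycyl-tRNA synthetase Gars at −0.77 and the mitochondrial folate enzyme Mthfd2 at −0.76. Set against genes of their own signal range, Phgdh, Psph and Gars were below the central 95%. Mthfd2 lay inside it, since for its signal range it reached −0.95. On the diosgenin array Phgdh at 23.1 and Mthfd2 at 25.2 were dimmer than the filter value of 28.4. The Phgdh probe set may also bind other transcripts. The other 10 genes of this list on the array were below the filter.

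The neighbouring processes were ER translocation and vesicle transport and the cytosolic and mitochondrial chaperones. Of 60 translocation and transport genes 47 were lower, with a median of −0.13, but 2 were at least 1.5-fold lower, Tmed3 at −0.83 and Preb at −0.64. Next came the COPII coat genes Sec23b at −0.47 and Sec24d at −0.45. Of 37 cytosolic and mitochondrial chaperone genes 26 were lower, with a median of −0.09. Among these Hsph1 was at −0.87 and Hsp90aa1 at −0.76, whereas Hspa1a and Hspa1b, near-identical copies that the probe sets may not tell apart, were at 0.98 and 1.04. The share of genes at least 1.5-fold lower was 3.33% for transport and 5.41% for the cytosolic and mitochondrial chaperones, against 18.9% for the 37 genes. No test sets these shares apart, since each diet had 1 array, and the lists were chosen with earlier results of these data known.

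**Figure D5:**
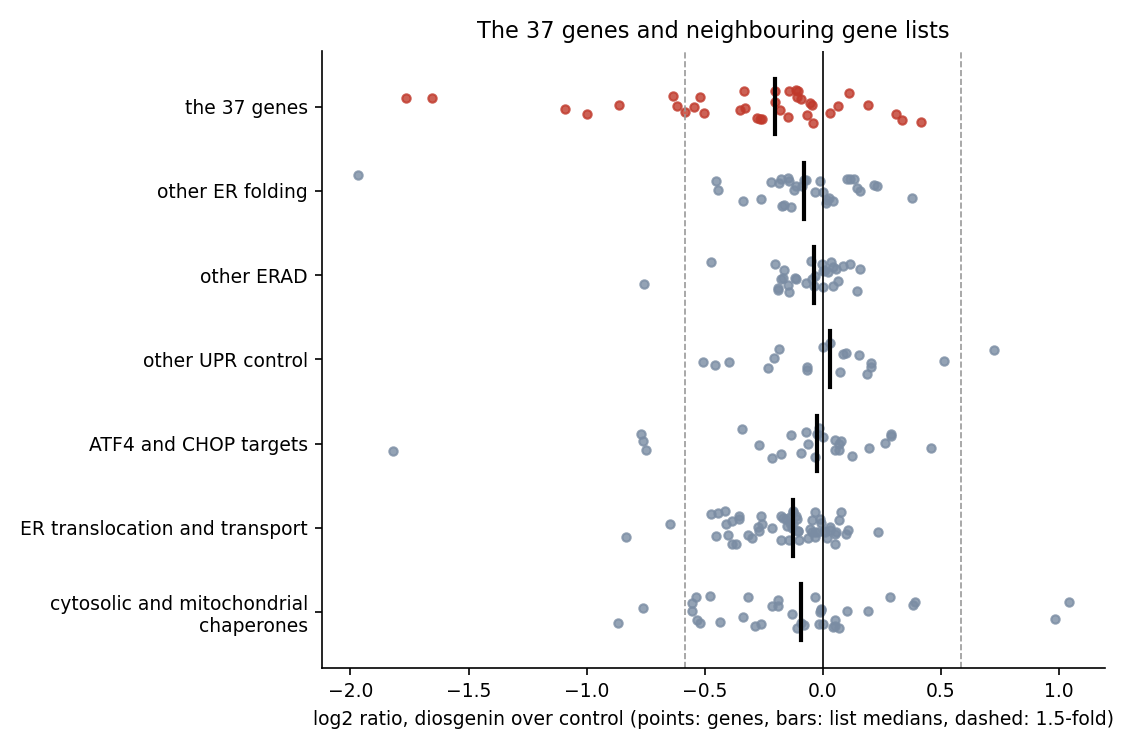
Log2 ratio, diosgenin over control, for the 37 genes (red) and for neighbouring gene lists (grey). Each point is a gene above the filter, bars are list medians and dashed lines mark 1.5-fold. The median lies at −0.20 for the 37 genes, and the other medians lie between −0.13 and 0.03.

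Cell type markers, RNA measures and clock genes of the same arrays are given here, and their part in the differences was not tested. All 9 hepatocyte markers were above the filter, with a median of −0.05 and summed signals of 66491 with diosgenin and 68528 in the control, where sums run over the markers above the filter, and Pck1 and Apob were at 0.30 and −0.29. Of 8 endothelial markers 7 were lower, with a median of −0.25 and summed signals of 1584 with diosgenin and 2003 in the control, and Clec4g and Lyve1 were at −0.68 and −0.50. Of 8 macrophage markers 6 were higher, with a median of 0.11 and summed signals of 2242 with diosgenin and 2052 in the control. Among them Marco had 45.1 with diosgenin and 13.3 in the control, a log2 ratio of 1.76, and Clec4f was at 0.36. Of 7 stellate cell markers 6 were higher, with sums of 2558 with diosgenin and 2123 in the control, and Pdgfrb and Dcn were at −0.39 and 0.37. Plasma and acinar cells carry much ER and express Derl3 and Fkbp11. Of 6 B and plasma cell markers 2 were above the filter, Jchain at 29.5 with diosgenin and 34.6 in the control and Mzb1 at 36.0 with diosgenin and 34.1 in the control, and of 9 acinar markers 2 were, Cela1 at 1150.1 with diosgenin and 1212 in the control and Cela3b at 44.2 with diosgenin and 38.2 in the control. Of 5 bile duct markers 1 was above the filter, Sox9 at 26.1 with diosgenin and 42.0 in the control, and of 8 T and NK cell markers 1 was, Cd8a at 31.1 with diosgenin and 31.2 in the control. The ratio of 3′ to 5′ signal was 2.03 with diosgenin and 1.86 in the control for Actb, 0.799 with diosgenin and 0.822 in the control for Gapdh, and 7.46 with diosgenin and 6.16 in the control for Pcx. Of 13 clock genes above the filter, Dbp was at a log2 ratio of 2.40, Per1 at 1.02, Bhlhe40 at 0.95 and Cry1 at −0.87.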

How the data were processed

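Liver RNA pooled from 3 mice per diet was measured on 1 array for diosgenin and 1 for the control diet. The authors deposited array intensities on a linear scale for 45101 probe sets. GCOS is named without a version, per the submitters' processing notes. The algorithm that summarised the probes is not given in the sources used here, nor are its scaling target and presence calls. The 2% trimmed mean was 96.9 on each array, and the deposited scaling was kept. This scaling measures levels relative to the whole array, and a shift common to all genes would not be seen.

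Gene names came from the platform annotation, in which 34958 probe sets had 1 gene symbol, 932 several and 9211 none here. The floor was the 40th percentile of all signals and the filter the 60th percentile of mean signals. Log2 ratios are diosgenin over control. No test was run, and the number of arrays limits the precision. All 37 genes were named with their signals, and of the other lists up to 4 genes with the largest log2 ratios, and up to 2 for markers. Gene lists and members were chosen with earlier results of these data known. The procedure was checked on synthetic arrays. Promoters came from RefSeq, GRCm38.p6. Python 3.11.15, pandas 2.3.3 and numpy 2.4.6 were used. Alternatives changed the floor, the filter, the gene value, the probe set types or the scaling.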

Additional observations from a re-analysis of the deposited data

How the results depend on the processing

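Under the 8 alternatives, the 37 genes gave 288 log2 ratios, all of which moved by less than 0.28, the SD between probe sets of a gene. The changes of floor and filter could not move these ratios. Every signal used lay above each floor, and the filter only decides which genes are kept. Only changes of the gene value, the probe set types and the scaling could move them. The median log2 ratio lay between −0.20 and −0.13, and 5 to 8 genes were at least 1.5-fold lower, against 7 as reported. The count at least 2-fold lower was 2 to 4, and 0 genes were at least 1.5-fold higher in each setting. Without shared and alternative probe sets only 30 of the genes had a value, and Hspa5 and Derl3 were not among them. Of the 7 genes at least 1.5-fold lower, 6 were so under each alternative that gave them a value, and Hspa5 was at −0.58 with quantile normalization. Creld2, Derl3, Sdf2l1, Manf and Dnajb11 each had 1 probe set above the filter. For these genes only the changes of scaling could move the ratio, so the other alternatives say nothing about them. Atf6, Dnajc10 and Pdia6 changed sign under some alternative. The count of lower genes was 22 to 30. The chaperone median was −0.05 without shared and alternative probe sets, against −0.27. It then came from Canx and Hyou1 alone, since Hspa5, Hsp90b1 and Calr had no value. With the median of all probe sets of a gene, the median of the sensors with Xbp1 was −0.18, against −0.04. The ERAD median was then −0.07, against −0.11. The median of the PERK output changed sign, to 0.03, with the filter at the 75th percentile and without shared and alternative probe sets. In both settings Trib3, which was lower, had dropped out of the group. No paired analysis was possible because each diet had 1 array. The lack of replicate arrays limits every value here, and the dimmest genes most.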

Other observations

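Outside the 37 genes the ERSE was rare. It occurred near the start of 37 genes in the whole RefSeq table, 10 of them among the genes described here, and 4 of the others were above the filter. These 4 are named after their values were seen. Acnat2, an acyltransferase gene, had 83.2 with diosgenin and 202 in the control, a log2 ratio of −1.28. Alg12, a mannosyltransferase gene of N-glycan assembly, had 58.8 with diosgenin and 96.4 in the control, a log2 ratio of −0.71, and its other probe sets were at −0.19 and −0.77. Acacb and Pan2 were at −0.12 and 0.20. The ERSE of Alg12 is the same stretch of chromosome 15 as that of Creld2, from base 88819520 to 88819538, on GRCm38.p6, since both windows hold it. Alg12 and Creld2 were both lower.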
